A study of Schmidtea mediterranea with 6 samples.

Results

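A set of 74 poly(A) sites of the planarian flatworm Schmidtea mediterranea was detected in sorted stem cells and not in sorted differentiated cells. They are 74 of the 5054 sites on the array, or 1.46%, and 6.72% of the 1102 sites detected on both stem cell arrays. Cells of the sexual strain were sorted by flow cytometry, with no treatment, into the gates that the labels call X1 (stem cells), X2 (progenitors) and Xins (differentiated cells). Each gate was measured on 2 one-colour arrays of probes for distal poly(A) sites, 6 arrays on 1 slide. Nothing in the labels tells if both arrays of a gate had their own animals or their own sort, so the p-values reflect array-to-array spread that may be technical. The labels give no purity for a gate. Since the files pair no model with a gene name, the labelled cell types could not be checked against marker genes.

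The rule used the scanner software's own mark for a spot well above background, called detected below. Each site, a position on a contig with strand, start and end, was represented by its brightest probe. The site belongs to the set where that probe was detected on both X1 arrays and on neither Xins array. Every value of X1 against Xins was thus favoured in direction by the choice and is given as a description, without a test. Detection on the X2 arrays played no part in the rule. Signal on the X2 arrays did, since the brightest probe of a site was picked by signal on all arrays. At sites with several probes this choice favours detection in X2 as well. The 74 sites lie on 74 different contigs and carry 74 distinct probe sequences. With no gene names to go by, each site is called by its model in the file and by its contig.

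Planarian stem cells, the neoblasts, are the only dividing cells of the adult worm outside the germ line, and they replace all its tissues. The X1 gate collects cells with more DNA than resting cells, which irradiation removes. The X2 gate is also sensitive to irradiation and is known to mix stem cells before DNA replication with their young progeny, while Xins cells persist after irradiation. An mRNA ends where the cleavage and polyadenylation machinery cuts the transcript, usually a short way downstream of the hexamer AATAAA or of a variant such as ATTAAA. Many genes carry more than 1 such site, so the array reads mRNA that holds the probe's sequence at a given site, not the gene as a whole. Where that mRNA ends was not measured.

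The last 30 bases of 8 probes are shown, 5′ to 3′ as the files give them, because the results on X2 turn on these sites. Capitals mark AATAAA or ATTAAA starting 10 to 35 nt before the 3′ end of the probe, and a sequence without capitals holds neither within the part shown.
OX_Smed_1.0.01327: gttctaaatataactttgaattgtctttat
dd_smedV4_11487_0_1: AATAAAtatattgattcttcagtttatgat
mk4.000231.03.01: ctctttgttataatatatttcgtgttgtct
OX_Smed_1.0.07859: taatcgtaatgagcggctataatgttgaaa
mk4.000520.06.01: atgtgcttaaattatagcgtttgtttttat
OX_Smed_1.0.20247: attttgtcagtagtagatatctcattttta
mk4.003741.00.01: atgtgttgAATAAAacttatgttcagttac
OX_Smed_1.0.13402: taatttAATAAAtgttatcattattgttta
The first 3 were called lower in X2 than in X1 and were still detected there. The next 3 had at most 1 X2 array with detection, and the last 2 had a higher mean in X2 than in X1.

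Signals are given as log2 intensity after subtraction of an array's own 75th percentile, taken over the 1914 probes detected on all 6 arrays. Between 1216 and 1453 of the 5054 sites were detected per array. The lowest detected signal was -6.44 and -5.30 on X1 arrays 1 and 2, -6.29 and -5.57 on X2 arrays 1 and 2, and -6.22 and -5.27 on Xins arrays 1 and 2. The limit was thus lower on array 1 of each gate than on array 2. Precision is limited by the number of arrays: the 95% interval of a difference reached a median of 1.21 to either side over the 74 sites. The brightness of a probe also depends on its sequence, so the order of sites by signal is not an order of transcript abundance.

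Most of the 74 sites lay close to the detection limit in X1. Their X1 means ran from -5.65 to -0.65 with a median of -4.47, against a median of -2.31 for the other 1028 sites detected on both X1 arrays. When the 1102 sites were ranked by X1 signal and divided into 4 equal parts, the lowest part held 57 of the 74 sites, the next 12, the next 5 and the highest 0. In X2, the 74 means ran from -8.01 to -3.59 with a median of -5.49, and in Xins from -8.04 to -5.59 with a median of -6.96. Some values in X2 and Xins are surrogates, set by the scanner software for spots too dim to measure. The lowest mean in each of these gates rested on surrogates alone.

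**Figure D1:**
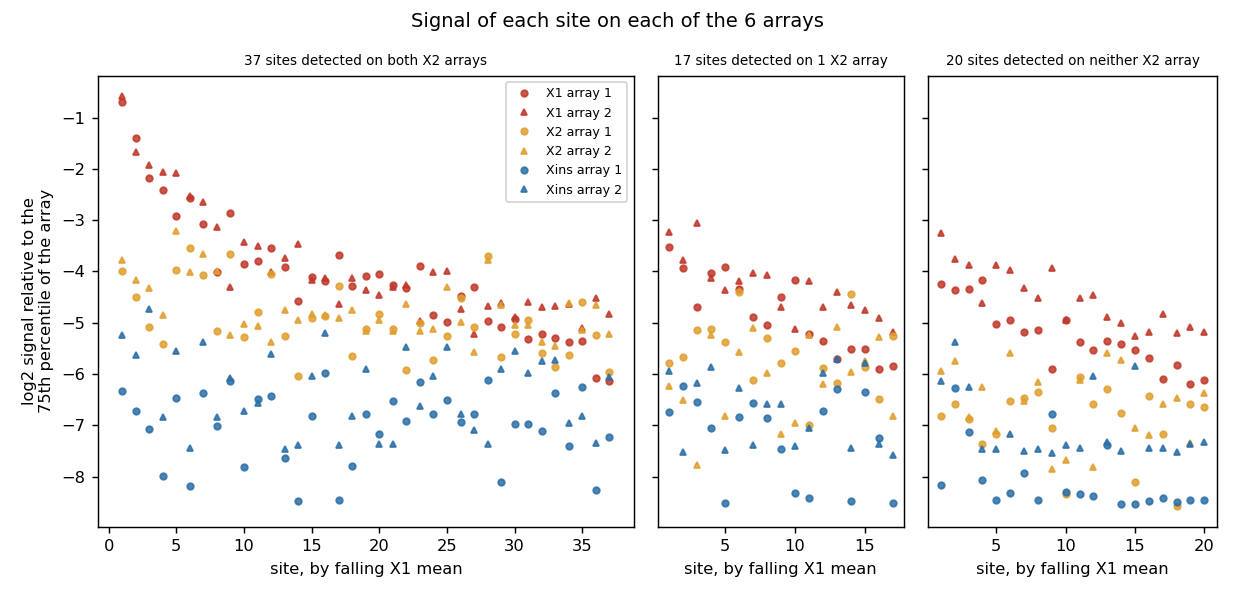
Signal of the 74 sites on each array, on a log2 scale relative to the 75th percentile of the array, in 3 panels by the number of X2 arrays with detection. Circles are array 1 and triangles array 2 of each gate, and sites run by falling X1 mean, from a highest X1 mean of -0.65 in the first panel, -3.37 in the second and -3.75 in the third.

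Being undetected in Xins did not mean that the spot was dark. By a weaker mark of the scanner software, for a signal that is positive and significantly above the local background, 34 of the 74 sites had signal on both Xins arrays, 21 on 1 and 19 on neither. At 7 sites, whose probe had 2 spots on each array, a single spot was well above background in Xins. For these reasons the fall from X1 to Xins can only be bounded. Each bound sets the X1 mean against the Xins mean, with each Xins array taken at its lowest detected signal where the site's own signal was lower. The median bound was at least 2.41-fold lower in Xins than in X1. It was at least 2-fold at 43 of the 74 sites and at least 4-fold at 12.

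The largest bounds belonged to 3 sites that stood well clear of the limit in X1. The site of OX_Smed_1.0.01327 (Contig1255, minus strand, 36645 to 36648) had -0.71 and -0.59 on the X1 arrays, -3.98 and -3.78 on the X2 arrays and -6.33 and -5.24 on the Xins arrays. Signal in Xins was at least 34.0-fold lower than in X1. The site of dd_smedV4_11487_0_1 (Contig226, minus strand, 72179 to 72221) had -1.40 and -1.68 in X1, -4.49 and -4.17 in X2 and -6.72 and -5.64 in Xins. Its bound was at least 18.4-fold by the site's own probe. Another probe of this site, named for OX_Smed_1.0.07262, was detected on both Xins arrays and fell by less, with means of -2.06 in X1 and -5.21 in Xins. The site of mk4.000231.03.01 (Contig231, plus strand, 186536 to 186538) had -2.42 and -2.06 in X1, -5.42 and -4.85 in X2 and -7.98 and -6.84 in Xins. Its bound was at least 11.4-fold, and neither Xins array had signal above local background by the weaker mark. By the site's own probe, the arrays of the 3 gates did not overlap at any of the 3 sites, with X2 between X1 and Xins. The sites of mk4.000073.19.01 (Contig73, minus strand, 148335 to 148342) and OX_Smed_1.0.09193 (Contig14077, minus strand, 785 to 811) followed, with Xins at least 10.8-fold and at least 9.47-fold lower than X1.

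At the other end, the set reaches down to the limit itself. The site of OX_Smed_1.0.14325 (Contig5042, minus strand, 45165 to 45174) had the lowest X1 mean, with -6.12 and -5.19 in X1. Its Xins values of -8.45 and -7.33 were surrogates, and the bound for Xins was only at least 1.07-fold lower. The sites of OX_Smed_1.0.11712 (Contig513, plus strand, 40915 to 40916) and OX_Smed_1.0.13896 (Contig837, minus strand, 25475) gave at least 1.08-fold and at least 1.17-fold. Just outside the set were 119 sites detected on both X1 arrays and on 1 Xins array. Of these, the site of dd_smedV4_3081_0_1 (Contig2801, minus strand, 29715 to 29721) had the lowest Xins mean, with -6.13 and -7.54 in Xins and -5.61 and -5.15 in X1. A further 218 sites were detected on 1 X1 array and on neither Xins array.

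The marks held only in part from one pair of arrays to the other. When sites were chosen on the arrays of replicate 1 alone, 234 were detected in X1 and not in Xins. On the arrays of replicate 2, whose marks this choice did not use, 74 of the 234 (31.6%) had the same pattern. Signal on all 6 arrays had picked the probe of each site, so neither this reading nor the reverse one is fully held out. A further 141 were detected in neither gate, 13 in both and 6 in Xins alone. Signal was higher in X1 than in Xins at 165 of the 234, and the median of Xins minus X1 was -1.03. Chosen on replicate 2 and read on replicate 1, 74 of 279 sites (26.5%) repeated the pattern, 106 were detected in both gates, 77 in neither and 22 in Xins alone. There the median of Xins minus X1 was -1.07, with X1 higher at 187 sites. The opposite pattern, detected in Xins and not in X1, was repeated at similar rates. It recurred at 92 of 260 sites (35.4%) chosen on replicate 1 and at 92 of 271 (33.9%) chosen on replicate 2.

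Detection of the site's own probe in X2 split the set. Of the 74 sites, 37 (50%) were detected on both X2 arrays, 17 (23.0%) on 1 and 20 (27.0%) on neither. X2 array 1 detected 50 of them and X2 array 2 detected 41. Among the other 1028 sites detected on both X1 arrays, 985 (95.8%) were detected on both X2 arrays, 34 on 1 and 9 on neither. The 92 sites with the opposite pattern, detected on both Xins arrays and on neither X1 array, gave 25 (27.2%) on both X2 arrays, 19 on 1 and 48 (52.2%) on neither. Since detection follows brightness, the lowest of the 4 parts by X1 signal is the nearer comparison: there 24 of the 57 sites of the set were detected on both X2 arrays, against 188 of the other 219 (85.8%). In both comparisons the other sites were each detected on at least 1 Xins array, so the rule also set them apart from the set by Xins signal. These are counts of sites on the same arrays and were not tested.

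**Figure D2:**
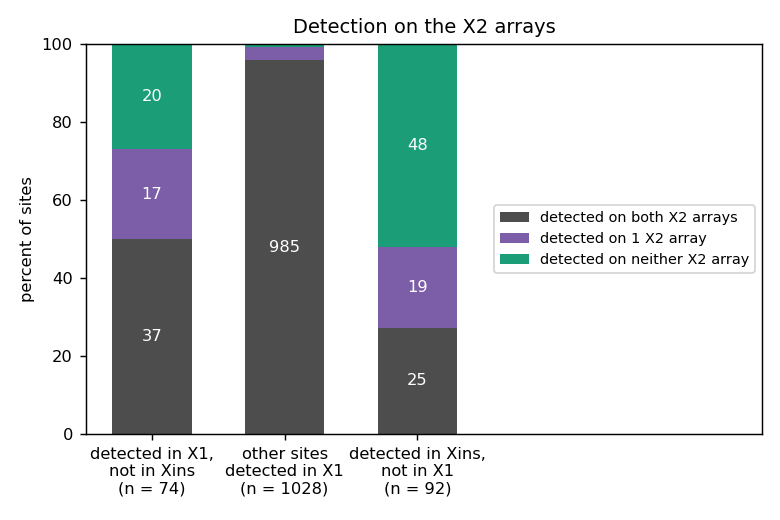
Percent of sites detected on both, 1 or neither X2 array, for the 74 sites detected in X1 and not in Xins, the other 1028 sites detected in X1, and the 92 sites detected in Xins and not in X1. Numbers in the bars are counts of sites, with 37, 17 and 20 in the first bar.

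Signal in X2 was mostly lower than in X1. The X2 mean was below the X1 mean at 71 of the 74 sites, against 51.1% of the 1349 sites tested, and the median difference was -1.05, against -0.02 over all sites tested. A site was tested where both arrays of at least 1 gate detected it, and all 74 passed this filter through X1, with 37 of them passing through X2 as well. Because the sites were chosen for high marks in X1, part of any fall from X1 is built into the choice. In the lowest of the 4 parts by X1 signal the median difference was -0.98 for the set. It was 0.20 for the other sites, which were each detected on at least 1 Xins array and so differ from the set by the rule. Both X2 arrays lay under both X1 arrays at 57 sites, against 26.3% of the sites tested, and over them at 1 site, against 29.1%. At the remaining 16 sites the arrays of the gates overlapped. In these bulk samples, fewer cells of a type and less RNA per cell cannot be told apart.

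In limma's moderated test over all 1349 sites, 8 of the 74 were called lower in X2 than in X1 at an adjusted p under 0.05 and 0 were called higher. The background was 1.56% of sites called lower and 4.67% called higher. At an unadjusted p under 0.05, 29 of the 74 were lower, against 9.49% of the sites tested, and 0 were higher, against 14.8%. The X1 arrays chose the sites, and all but the 37 detected on both X2 arrays entered the test through X1 alone, so these counts describe the set and are no independent evidence of a fall. Leaving out X1 array 1 left 1 call, and leaving out X1 array 2, X2 array 1 or X2 array 2 left 0. Spike-in scaling, which moved the median X2 minus X1 over all sites tested to 0.59, also left 0, as did testing all sites without a filter on dim ones. The median over the set was -0.44 with spike-in scaling and -0.13 when normexp and quantile normalization were used instead, which left 5 calls. The percentile over all probes gave 16. A fit with the replicate number as a further term (replicate block) gave 26, where 12.8% of all sites tested were called lower. The labels do not say that these numbers pair samples.

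Of the 8, 3 were measured in X2 and are those with the largest bounds in Xins. For OX_Smed_1.0.01327, the X2 mean was -3.88 ± 0.14 and the X1 mean -0.65 ± 0.08 (SD, n = 2 arrays each). The log2 difference was -3.24 (SE 0.46, limma adjusted p = 0.0173), or 9.42-fold lower in X2. For mk4.000231.03.01 the X2 mean was -5.13 ± 0.41 and the X1 mean -2.24 ± 0.25, a log2 difference of -2.89 (SE 0.50, limma adjusted p = 0.0223). For dd_smedV4_11487_0_1 the X2 mean was -4.33 ± 0.22 and the X1 mean -1.54 ± 0.20, a log2 difference of -2.79 (SE 0.47, limma adjusted p = 0.0213). At all 3, both gates were measured above the limit. X1 marks chose these sites too, so their p-values are no independent evidence of a fall either. The 3 kept their calls after normexp with quantile normalization. With spike-in scaling they lost them, at limma adjusted p = 0.0539, 0.0857 and 0.119 in the order given, as they did without the filter on dim sites. For mk4.000073.19.01, with -5.09 and -4.33 in X2 and -2.17 and -1.92 in X1, the log2 difference of -2.66 missed the threshold (limma adjusted p = 0.0945). It passed with the replicate block (limma adjusted p = 0.0325), the percentile over all probes (0.0232) and normexp with quantile normalization (0.0336). It missed with spike-in scaling (limma adjusted p = 0.143), the authors' value table (0.0923) and the mean of all probes of a site (0.0985). Testing every probe (limma adjusted p = 0.0902) or dropping the filter on dim sites (0.380) also left it over the threshold.

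The other 5 of the 8 were not above the limit on both X2 arrays and had entered the test through X1, so they are given as bounds without a p-value. The site of OX_Smed_1.0.07859 (Contig8055, minus strand, 2519 to 2555) was detected on 1 X2 array, with -5.79 and -6.23 in X2 and -3.52 and -3.22 in X1, and X2 was at least 4.94-fold lower. The remaining 4 were detected on neither X2 array. At the site of mk4.000520.06.01 (Contig520, minus strand, 59250 to 59263), with -6.88 and -6.83 in X2 and -4.33 and -3.87 in X1, X2 was at least 3.56-fold lower. The sites of dd_smedV4_15869_0_1 (Contig8584, plus strand, 12410 to 12414) and mk4.000031.17.02 (Contig31, minus strand, 226847) were at least 2.91-fold and at least 2.79-fold lower in X2. The site of OX_Smed_1.0.20247 (Contig3837, plus strand, 11584) was at least 1.99-fold lower in X2, with -4.94 on both X1 arrays. Its X2 values were surrogates, which the scanner software sets for spots too dim to measure. It was the only site of the set at which neither X2 array rose above local background by the weaker mark.

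**Figure D3:**
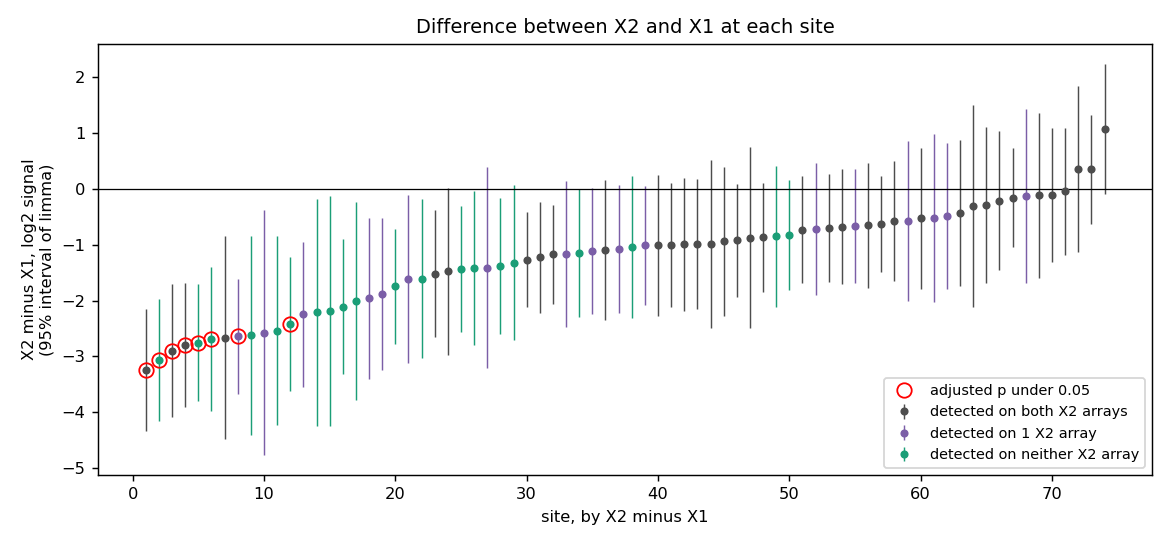
Difference X2 minus X1 of log2 signal at each of the 74 sites, sorted, with the 95% interval of limma and colours for the number of X2 arrays with detection. Red rings mark the 8 sites with an adjusted p under 0.05, and 3 sites lie above 0.

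The 20 sites detected on neither X2 array were, by the marks of the site's own probe, on in X1 alone. Their X2 means ran from -8.01 to -5.95, and both X2 arrays lay under both X1 arrays at each of the 20, an order that their marks favour. In X1 the means ran from -5.65 to -3.75. The brightest was the site of OX_Smed_1.0.22664 (Contig1015, plus strand, 94786 to 94797), with -4.25 and -3.26 in X1, -6.81 and -5.94 in X2 and -8.17 and -6.13 in Xins. X2 was at least 4.53-fold lower than X1 there. The site of dd_smedV4_7727_0_1 (Contig2059, plus strand, 82606 to 82653) had -4.36 and -3.76 in X1, -6.59 and -5.75 in X2 and -6.27 and -5.37 in Xins, so that the X2 and Xins arrays overlapped. X2 lay at or below Xins in mean at 6 of these 20 sites. Signal above local background by the weaker mark was still present on both X2 arrays at 16 of them, against 2 of 20 on both Xins arrays.

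The 17 sites detected on 1 X2 array were split by array, with 13 detected on X2 array 1 and 4 on X2 array 2, in the direction of the lower limit of array 1. Their X2 means ran from -6.48 to -4.98. The site of dd_smedV4_43298_0_1 (Contig4740, minus strand, 11568 to 11575) had close replicates, with -5.13 and -5.24 in X2 and -4.02 and -4.13 in X1. The site of mk4.000803.04.01 (Contig803, plus strand, 132974 to 132993) had -5.14 on X2 array 1 and a surrogate value on X2 array 2, against -4.69 and -3.06 in X1, and X2 was at least 2.79-fold lower. At the sites of OX_Smed_1.0.09418 (Contig284, minus strand, 30892) and OX_Smed_1.0.10410 (Contig14196, plus strand, 6413) X2 was at least 3.42-fold and at least 2.52-fold lower than X1.

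The 37 sites detected on both X2 arrays had X2 means from -5.66 to -3.59 and a median difference to X1 of -0.86. At 24 of them both X2 arrays lay under both X1 arrays, at 12 the arrays overlapped, and at 1 both lay above. The 1 was the site of mk4.003741.00.01 (Contig3741, plus strand, 35625), with -3.69 and -3.77 in X2, -4.96 and -4.67 in X1 and -6.11 and -7.35 in Xins. Its X2 minus X1 difference was 1.08 (95% interval -0.08 to 2.25, limma adjusted p = 0.233), which did not pass the test. The sites of OX_Smed_1.0.12163 (Contig82, minus strand, 112415) and OX_Smed_1.0.13402 (Contig39, plus strand, 260000 to 260004) also had a higher mean in X2, by 0.36 each, with intervals of -0.62 to 1.33 and -1.13 to 1.84. At the last of these, X1 array 1 had -6.07 and X1 array 2 had -4.52, and without X1 array 1 the difference was -0.42.

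Between Xins and X2 the rule had fixed the Xins side, since no site of the set could be detected on a Xins array, so the values are a description and nothing is read from their counts. In limma's fit, 26 of the 74 were below the adjusted threshold with Xins lower than X2, where the background was 11.5%, and 22 of the 26 had been detected on both X2 arrays. Both Xins arrays lay under both X2 arrays at 56 sites, against 36.8% of the sites tested. The count of 26 became 10, 9 and 7 without X2 array 1, X2 array 2 and Xins array 1. It was 2 after normexp correction, 2 without the filter on dim sites and 14 in the authors' value table. For mk4.003741.00.01, Xins had -6.11 and -7.35 and X2 -3.69 and -3.77, and Xins was at least 3.89-fold lower. The site of OX_Smed_1.0.09193 had -6.46 and -5.54 in Xins and -3.97 and -3.21 in X2, and there Xins was at least 4.45-fold lower. At the site of OX_Smed_1.0.07016 (Contig1411, plus strand, 60151 to 60155), Xins had -7.17 and -7.35 and X2 -4.83 and -4.94, at least 1.82-fold lower in Xins. X1 was at -4.05 and -4.45 there, and the X2 minus X1 difference of -0.63 had an interval of -1.49 to 0.24. Over the 74 sites, the X2 mean lay between those of X1 and Xins at 64, above X1 at 3 and below Xins at 7.

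**Figure D4:**
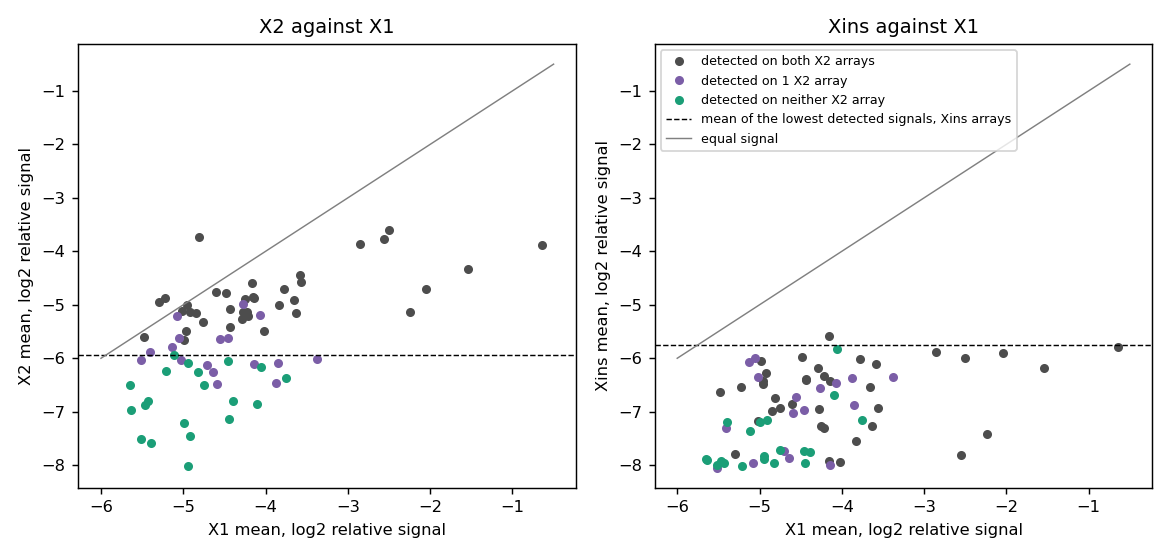
Mean log2 relative signal of the 74 sites in X2 (left) and in Xins (right) against the mean in X1, with colours for the number of X2 arrays with detection. The grey line marks equal signal and the dashed line the mean of the lowest detected signals on the arrays of the vertical axis. The X2 means span -8.01 to -3.59 and the Xins means -8.04 to -5.59.

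Probes of the same sequence give a check on the marks. Of the 74 sites, 42 had further probes of the identical sequence, 64 in all, 2 of them placed at another site. Of the 64, 41 met the rule themselves, 20 were not detected on both X1 arrays and 3 were detected on a Xins array. The site's own probe is by choice the brightest over the arrays of all gates, which favours detection in X1 and in X2. Detection in X2 also varied between probes of one sequence. That of dd_smedV4_47030_0_1 (Contig370) was detected on 1 X2 array and its identical probes on neither. For dd_smedV4_11636_0_1 (Contig753) it was neither against 1, and for dd_smedV4_8308_0_1 (Contig2552) both against neither. At dd_smedV4_15869_0_1 all were detected on neither. The split by X2 detection thus holds for the site's own probe. The X2 minus X1 difference of these probes departed from that of the site's own probe by a median of 0.27 in size.

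At 4 sites a second probe of another sequence was present. At the site of OX_Smed_1.0.09193, the second sequence had -3.34 and -2.47 in X1, -4.65 and -3.93 in X2 and -7.35 and -5.85 in Xins, and it met the rule. That of OX_Smed_1.0.07859 had -3.30 and -3.10 in X1, -5.65 and -5.69 in X2 and -6.66 and -7.51 in Xins, again with detection on 1 X2 array. The second sequence of dd_smedV4_7727_0_1 was detected on neither X2 array, as was the site's own probe. However, the probes of the first sequence named for dd_smedV4_7727_0_2 and mk4.002059.06.01 were each detected on 1 X2 array. At the site of dd_smedV4_11487_0_1, 2 probes of one second sequence agreed in X1, at -2.06 and -2.19 in mean, and differed in Xins. The probe named for OX_Smed_1.0.07262 was detected on both Xins arrays, at -5.62 and -4.80, and the probe named for mk4.000226.04.01 on neither, at -7.53 and -7.56. Second sequences overlap the first in part and are not independent of it.

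The sites were narrow and ordinary in sequence. They were 1 to 54 nt wide with a median of 5 nt, against 16 nt for the other sites detected in X1 and 3 nt for all 5054. Probes were 25% GC in median, against 26.7% and 21.6%. Among the 63 sites at most 15 nt wide, 28 (44.4%) had AATAAA starting 10 to 35 nt from the 3′ end, 3 had ATTAAA without it and 32 (50.8%) had neither, against 37.7%, 4.34% and 58.0% of the other narrow sites detected in X1 and 45.7%, 8.35% and 46.0% of all narrow sites. The element TGTA, to which a cleavage factor binds in mammals, was present in 23 of the 74 probes (31.1%), against 32.7% of all. The motif TGTANATA of Pumilio proteins, RNA-binding proteins tied to stem cell maintenance in another planarian species, was present in 2 (2.70%), against 2.33% of all. Motifs were searched on the probe strand only, and TGTANATA contains TGTA. A match is a description of the letters and not a bound site.

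None of the 74 models was named at another site of the array. On the same contig and strand, 30 of the 74 had another mapped site at some distance, 0 within 1000 nt and 2 within 5000 nt. The nearest lay 3225 nt from the site of dd_smedV4_39331_0_2 (Contig983, plus strand, 28546 to 28547) and was detected on no array. The other lay 4674 nt from the site of OX_Smed_1.0.01327, under the model mk4.001255.05.02 (41322), with a mean of -4.26 in X1, -4.56 in X2 and -5.61 in Xins. It was detected on both arrays of X1 and X2 and on 1 Xins array. A change from one poly(A) site to another of the same transcript was not tested for these sites.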

How the data were processed

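Poly(A) RNA of 3 sorted gates was measured on 6 one-colour Agilent arrays. The authors deposited 1 scanner table per array, with linear intensity values. Feature Extraction 11.5.1.1 made them, per the file headers, with background subtraction and detrending; the marks (0 or 1 per spot) are the software's own. A second table of the authors, of unstated scale and centring, was deposited as well, read here as natural log because its slope against log2 scanner signal was 0.693 for 5 arrays; X2 array 1 had 0.716. The submitters' processing notes name limma.

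Controls were left out, as were 11 outlier-marked spots, and 6 probes then lacked a value on an array, none of them among the 74. A probe with 2 spots was averaged on the log2 scale and counted as detected where all its spots were. Signals are log2 minus the 75th percentile over the probes detected on all arrays. Sites (1 probe each) were fitted with limma 3.58.1 in R 4.3.3, gate as the only term over all 6 arrays, with Benjamini-Hochberg adjustment over 1349 sites. The fit was also run on simulated data with independent noise. These held no shared replicate effect and no surrogate values, so that run does not bear on either. The moderated test had 6.66 degrees of freedom. Sites were named by a written rule on X1 signal, X2 detection, size of difference, bound, second probes and neighbours. The members and lists were chosen with earlier results of these data known. Gene lists and cell type markers could not be matched, since the files give no gene names. Genome build and aligner are not given in the sources used here.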

Additional observations from a re-analysis of the deposited data

How the results depend on the processing

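The set depends on which arrays and marks are used. It held 151 and 215 sites without X1 array 1 or 2, and 180 and 87 without Xins array 1 or 2, so leaving out 1 array gave 87 to 215. The weaker mark of the scanner software gave 130 sites. Requiring every probe of a site to meet the rule gave 58, accepting any probe 108, and requiring that no Xins spot was detected, a choice made after seeing the data, gave 67. Calls of X2 against X1 numbered 16 with the percentile over all probes, 5 after normexp with quantile normalization, 0 with spike-in scaling, 0 with no filter on dim sites, and 0 to 11 with 1 array left out, all of them lower in X2. Over all sites tested, 21 were lower and 63 higher in X2 than in X1, against 40 and 74 with the percentile over all probes, 28 and 28 after normexp and 4 and 55 with spike-in scaling. Between Xins and X2, 155 were lower and 192 higher in Xins, against 52 and 208 in the authors' value table. Calls of Xins against X2 numbered 2 after normexp, 14 in the authors' value table (13 lower), 2 with no filter on dim sites, and 7 to 23 with 1 array left out. Leaving out an array of a gate leaves that gate 1 sample, assumed to vary like the others. The median X2 minus X1 was -0.13 after normexp and -0.44 with spike-in scaling, and -1.28 to -0.91 with 1 array left out. The cause of these changes was not tested. Replicate numbers are shared by the gates, but the labels do not say that they pair samples. Deviations of same-numbered arrays correlated at 0.573 (X1 and X2), 0.419 (X1 and Xins) and 0.353 (X2 and Xins). With the replicate block, 26 sites were called lower in X2 than in X1 and 42 lower in Xins than in X2, while over all sites tested the block gave 12.8% and 31.2%. Sites named in the text that were called in a comparison kept its direction under each alternative, and that direction was favoured by the choice of sites. Signal over background is a further limit, with bounds under 2-fold at the sites nearest the detection limit.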
